A study of Mus musculus with 15 samples.

Results

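The genes described here are those that encode collagens, laminins, integrins and 6 matrix glycoproteins (Fn1, Sparc, Tnc, Thbs1, Thbs2 and Spp1). They were chosen by symbol alone, with no use of measured values, and make up 86 of the 40402 genes of the count table. The set holds 11 fibrillar collagen chains, 6 chains of type IV collagen, 27 other collagen chains, 11 laminin chains, 17 integrin alpha subunits, 8 integrin beta subunits and the 6 glycoproteins. Bulk RNA-seq was done on 4T1 cells, a wild-type mouse mammary carcinoma line grown in RPMI1640 with serum, in 5 conditions. The conditions were untreated cells, cells given blackberry extract (BLA) or blueberry extract (BLU), and cells given gold nanoparticles made with blackberry (BLA-A) or blueberry (BLU-A), all treatments at a single concentration. Each condition had 3 labelled replicates. The study's statistics paragraph speaks of biological replicates, while a table in its supplement gives a single total of raw reads per condition and lists the replicates as equal subsets of reads. Within each condition the columns varied less than sampling alone would make them, with chi-square per degree of freedom between 0.0951 and 0.475 where separate draws give about 1, so their mean was used as 1 library. No comparison of 1 treatment with untreated cells therefore has a replicate check, and the batch label gives a separate date for each sample, so date and condition cannot be told apart.

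The extracellular matrix is the protein network that cells secrete and hold on to. Laminins are trimers of an alpha, a beta and a gamma chain that form, with type IV collagen, the sheet-like basement membrane under epithelia, while fibrillar collagens give connective tissue its strength. Integrins are cell surface receptors, each a dimer of an alpha and a beta subunit, that bind these proteins and link them to the actin cytoskeleton. Carcinoma cells make part of this matrix themselves, and fibronectin, tenascin C and laminin chains are widely studied in invasion.

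The averaged libraries held from 25613778 to 26956442 counts. Levels are given as CPM (counts scaled to a common library size by TMM, a method that sets the bulk of genes equal between libraries), and fold changes as log2 of CPM plus 0.5 against untreated cells. A member whose log2 fold change exceeded 1 in either direction was counted as higher or lower. Reads were counted over whole genes, introns included, so a level mixes mature and unspliced RNA. Of the markers of the labelled cell type, Krt18 had 572 CPM in untreated and 451 to 689 CPM in treated cells, and Epcam was at 68.9 and 39.7 to 63.0 CPM, while Krt5 had no counts in any library. The summed level of 10 epithelial markers was 1358 CPM in untreated cells, 1016 with BLA, 1049 with BLU, 1922 with BLA-A and 1197 with BLU-A, and its part in the differences below was not tested. The 8 fibroblast markers summed to between 90.1 and 104 CPM, nearly all from Pdgfra, with the defining marker Col3a1 at no more than 1 count. Leukocyte markers summed to 9.36 to 11.6 CPM and endothelial markers to 2.93 to 7.32 CPM. In bulk RNA, fewer cells of a type and less RNA per cell cannot be told apart.

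The set was dominated by fibronectin, osteopontin, laminins and the integrins of epithelial cells. Per kilobase of exon, untreated cells had the highest level for Spp1 (osteopontin, a secreted integrin ligand), with 686 CPM per kilobase. Fn1 (fibronectin) followed at 281, Itga3 (a laminin-binding integrin subunit) at 129.9, Itgb1 (its partner) at 113 and Thbs1 (thrombospondin, an adhesive glycoprotein) at 82.6 CPM per kilobase. Lamb1, Col8a1, Col4a1, Lama5 and Itga6 came next, between 78.5 and 46.2. Per kilobase of the whole gene the order was different, since Thbs1, at 34.1, then stood above Itga3 at 23.3 and Itgb1 at 13.8. The classical fibrillar chains were nearly absent, with Col1a1 at 1.80 CPM in untreated cells, Col1a2 at 0.300 and Col3a1 at 0.

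Over the 5 libraries, 21 members had a mean of at least 100 CPM, 15 a mean of 10 to 100, 24 a mean of 1 to 10 and 26 a mean under 1 CPM. The filter of 1 CPM in at least 1 library kept 74 members. The 12 left out were Col1a2, Col3a1, Col4a3, Col5a3, Col8a2, Col9a2, Itga4, Itgad, Itgam, Itgax, Lamc3 and Thbs2, none above 0.954 CPM in any library. Of the 74, 49 passed in all 5 libraries and 10 in 1 library only, 8 of them in the untreated library, so that those 8 had to be lower elsewhere. The 36 members with a mean of at least 10 CPM are therefore described first and the low ones apart.

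In the well expressed members, the BLA-A library stood apart while the median member of the other 3 treated libraries lay near its untreated level. In BLA-A, 7 of the 36 members were higher past the threshold, Lama5, Itga3, Sparc, Lamb3, Tnc and Lamc1 among them, where 7.86% of the 9765 genes of this level were, and 1 (Itga9) was lower, against 4.72%. In BLA, 1 was higher (Col4a6), against 3.61%, and 1 was lower (Itga9), against 1.61%. BLU gave the same numbers with the same genes, against 1.99% and 0.410%. In BLU-A, 1 was higher (Col4a6), against 0.758%, and none was lower, against 0.102%. The median log2 fold change of the 36 members was 0.05 with BLA, -0.01 with BLU, 0.59 with BLA-A and -0.01 with BLU-A, beside -0.01, -0.01, 0.10 and 0.01 over all genes of this level. Scaling by total counts moved the median of all genes with BLA-A from -0.01 to -0.18 and that of the 36 members from 0.59 to 0.39, and with it Lamc1 (0.91) and Tnc (0.92) no longer passed the threshold.

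**Figure D1:**
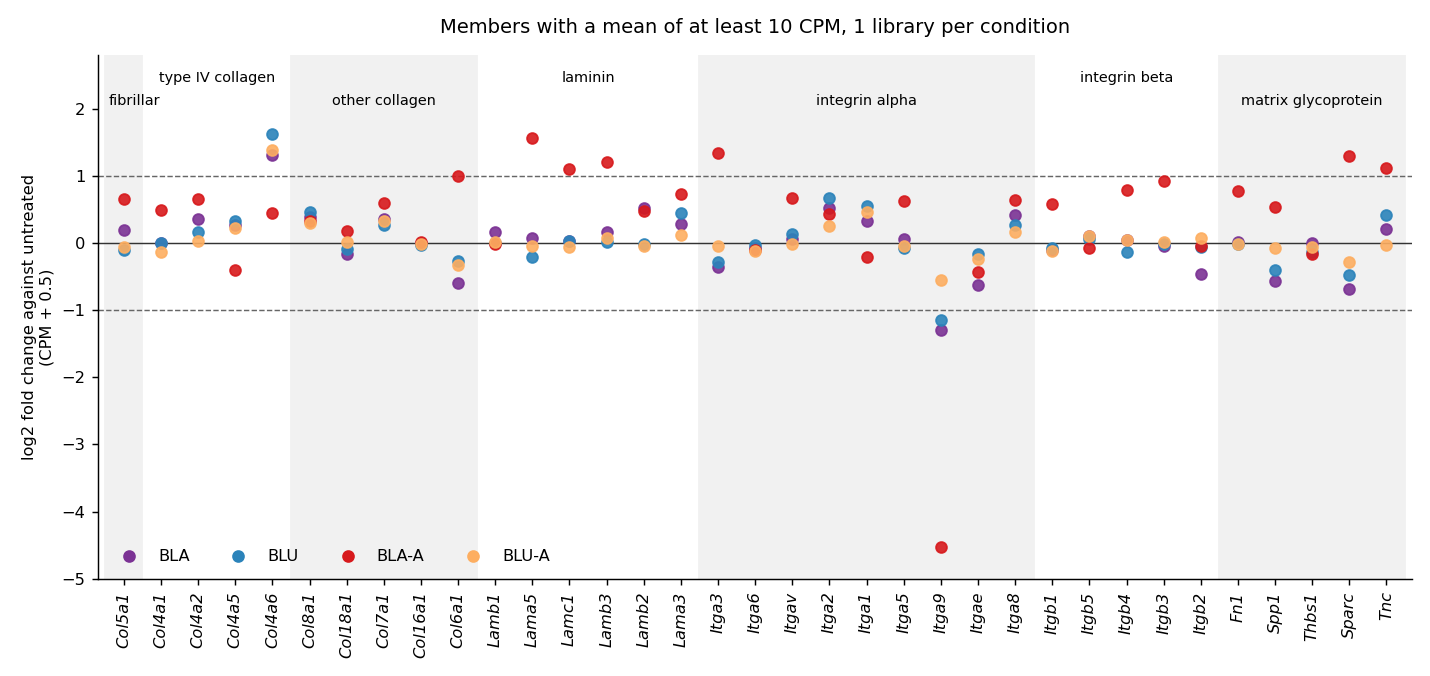
Log2 fold change of 35 of the 36 members with a mean of at least 10 CPM (x axis, grouped by kind of protein and ordered by level) in each treated library against the untreated library (y axis, on CPM plus 0.5). Each point is 1 library, the dashed lines mark log2 fold changes of 1 and -1, and the BLA-A points of Lama5 (1.56) and Itga3 (1.34) stand above the upper line and that of Itga9 (-4.52) far under the lower one.

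Laminin chains were the group with the largest number of members higher with BLA-A, at the same share of kept members as the glycoproteins (4 of 10 and 2 of 5). Their summed level was 2228 CPM in untreated cells, 2398 with BLA, 2165 with BLU, 4294 with BLA-A and 2213 with BLU-A. Of the 11 chains, 10 were kept, and 4 of these were higher with BLA-A, against 8.54% of all genes kept, and 3 lower, against 12.4%, the latter (Lama1, Lama2 and Lama4) all under 4 CPM in untreated cells. Lama4 passed the filter through the untreated library alone, so it had to be lower in the treated ones. The basement membrane chain Lama5 (chromosome 2, 179818166 to 179867712, minus strand, GRCm39) was at 549 CPM in untreated cells, 577 with BLA, 476 with BLU, 1623 with BLA-A and 529 with BLU-A. The BLA-A value was 2.96-fold the untreated one, with a 95% interval of 2.90 to 3.01 that covers counting error only, as do all intervals here. Its gamma partner Lamc1 (chromosome 1, 153094597 to 153208774, minus strand) was at 489, 499, 501, 1051 and 468 CPM in the same order of libraries, 2.15-fold with BLA-A (2.10 to 2.19). For both genes the other 4 libraries lay close together and BLA-A alone was high.

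The beta partner Lamb1 did not follow, with 842 CPM in untreated cells, 944 with BLA, 842 with BLU, 838 with BLA-A and 856 with BLU-A. Per kilobase of exon the ratio of Lamb1 to Lamc1 was 1.82 in untreated cells and between 1.77 and 2.00 with BLA, BLU and BLU-A, and was 0.842 with BLA-A. The ratio of Lama5 to Lamc1 was 1.11 in untreated cells and 1.53 with BLA-A. Lamb2, another beta chain, was at 38.7, 55.8, 38.3, 54.1 and 37.7 CPM, so it was above the rest in both blackberry libraries without passing the threshold.

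Lamb3 and Lama3, laminin chains of epidermal anchoring, were both at their highest with BLA-A. Lamb3 (chromosome 1, 192890007 to 193027705, plus strand) was at 104, 116, 105, 241 and 109 CPM, 2.31-fold with BLA-A (2.21 to 2.42). Lama3 was far lower, at 15.9, 19.5, 22.0, 26.8 and 17.3 CPM, and had a log2 fold change of 0.73 with BLA-A. The per-kilobase ratio of Lama3 to Lamb3 was 0.0978 in untreated cells, 0.107 with BLA, 0.133 with BLU, 0.0711 with BLA-A and 0.101 with BLU-A, lowest with BLA-A. The annotated span of Lamb3 also overlaps other genes, Hsd11b1 and G0s2 among them, and reads of overlapping genes cannot be told apart from its own where strand was not resolved.

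**Figure D2:**
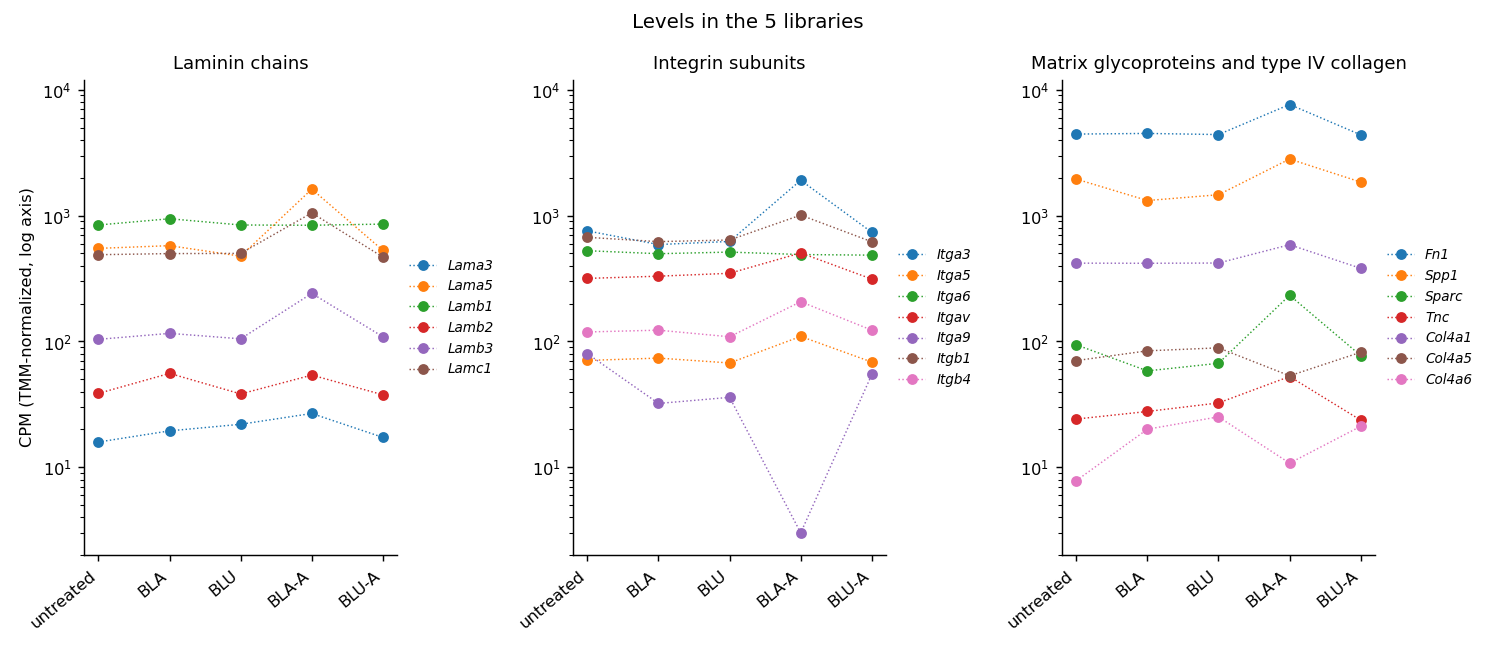
Level in CPM (y axis, log scale, TMM-normalized) of 6 laminin chains, 7 integrin subunits and 7 matrix genes in the 5 libraries (x axis), 1 point per library, with dotted lines only to guide the eye. Lama5, Lamc1, Lamb3, Itga3 and Sparc peak with BLA-A, Lamb1 and Itga6 stay level, and Itga9 lies at 3.02 CPM with BLA-A.

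Among the laminin receptors, Itga3 was higher with BLA-A while Itga6, which binds the same ligands, was not. Itga3 (chromosome 11, 94935296 to 94967682, minus strand) was at 756 CPM in untreated cells, 589 with BLA, 623 with BLU, 1909 with BLA-A and 736 with BLU-A, 2.53-fold with BLA-A (2.48 to 2.57). Itga6 was at 526, 498, 513, 490.4 and 485 CPM. Its hemidesmosome partner Itgb4 was at 119, 123, 109, 207 and 123 CPM, a log2 fold change of 0.79 with BLA-A, so the per-kilobase ratio of Itga6 to Itgb4 was 2.79 in untreated cells and 1.5 with BLA-A. Itgb1, the common beta subunit, was at 672, 621, 640.1, 1009 and 619.6 CPM, a log2 fold change of 0.58 with BLA-A. The ratio of Itga3 to Itgb1 was 1.15 in untreated cells, between 0.972 and 1.22 with BLA, BLU and BLU-A, and 1.94 with BLA-A.

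The windows before the starts of Lama5, Itga3 and Sparc are shown because these 3 members were all higher with BLA-A and have an entry in the RefSeq promoter table, which is on GRCm38.p6 and holds 61 of the 86 members. Each window is the 250 bases before the most upstream start listed, given 5′ to 3′ on the strand of the gene, and capitals mark GGGCGG, the GC box, on either strand (CCGCCC where it lies on the other strand).
Lama5 (chr2:180225860-180226109, minus strand, GRCm38.p6): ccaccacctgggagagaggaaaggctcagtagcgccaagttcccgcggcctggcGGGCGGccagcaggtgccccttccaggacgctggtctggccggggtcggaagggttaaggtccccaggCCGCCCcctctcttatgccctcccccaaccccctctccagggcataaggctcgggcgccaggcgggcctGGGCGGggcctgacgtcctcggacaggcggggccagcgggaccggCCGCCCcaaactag
Itga3 (chr11:95076715-95076964, minus strand, GRCm38.p6): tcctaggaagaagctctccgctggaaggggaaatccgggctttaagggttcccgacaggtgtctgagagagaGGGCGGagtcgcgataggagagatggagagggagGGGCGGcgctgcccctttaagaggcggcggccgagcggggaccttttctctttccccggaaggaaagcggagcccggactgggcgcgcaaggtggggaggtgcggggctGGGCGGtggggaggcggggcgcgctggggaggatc
Sparc (chr11:55420081-55420330, minus strand, GRCm38.p6): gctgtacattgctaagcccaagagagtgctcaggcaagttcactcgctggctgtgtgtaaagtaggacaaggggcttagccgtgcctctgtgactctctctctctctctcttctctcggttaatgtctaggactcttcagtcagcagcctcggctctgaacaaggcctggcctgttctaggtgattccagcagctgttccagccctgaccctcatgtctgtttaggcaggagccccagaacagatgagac
The Lama5 window held 4 matches and the Itga3 window 3, and the Sparc window held none. The GC box was found in 32.7% of the 32851 windows of the table and in 33 of the 69 windows of members (47.8%). The windows of Lama5, Itga3 and Sparc had GC contents of 72.4%, 67.6% and 54.0%. Lamb3, also higher with BLA-A, had no match and Tnc had 1, while Lamc1 had no entry. A match is a string of letters, not a shown binding site.

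Itgav, Itgb3, Itgb5 and Itga5, integrin subunits that bind fibronectin and other RGD ligands, passed the threshold in no treated library. Itgav was at 317 CPM in untreated cells, 330.1 with BLA, 348 with BLU, 505 with BLA-A and 313 with BLU-A. Its partner Itgb3 was at 44.2, 42.6, 43.9, 83.9 and 44.9 CPM, a log2 fold change of 0.92 with BLA-A, just inside the threshold. Itgb5, another partner of Itgav, was at 151, 163, 158, 143 and 162 CPM, its log2 fold change being -0.08 with BLA-A. The remaining partners were low, Itgb6 at 2.61 to 4.60 CPM and Itgb8 at 0.388 to 1.31 CPM. Itga5, the fibronectin receptor subunit, was at 70.7, 73.8, 67.5, 109.7 and 68.6 CPM. The collagen-binding Itga2 was above untreated in all 4 treated libraries, at 216 CPM in untreated cells, 310.1 with BLA, 344 with BLU, 292 with BLA-A and 257 with BLU-A, and passed the threshold in none.

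Itga9, the subunit that binds tenascin C and osteopontin, had the log2 fold change of largest size among the 36 well expressed members. It was at 80.1 CPM in untreated cells, 32.2 with BLA, 36 with BLU, 3.02 with BLA-A and 54.7 with BLU-A, from 2134, 878, 992, 70 and 1450 counts. All 4 treated libraries were below the untreated one, lowest with BLA-A and nearest to it with BLU-A. The level was 0.403 of untreated with BLA (0.372 to 0.436), 0.45 with BLU (0.416 to 0.485), 0.0377 with BLA-A (0.0293 to 0.0479) and 0.683 with BLU-A (0.639 to 0.731). The log2 fold changes were -1.30, -1.14, -4.52 and -0.55. The gene spans 294 kb of chromosome 9 (118435722 to 118730072, plus strand) with 7.73 kb of exon, and 3 annotated genes lie on its other strand. Among all kept genes over 150 kb, 39.1% were lower past the threshold with BLA-A and 2.10% higher. Of the known ligands of Itga9, Tnc was at 24.2, 27.8, 32.5, 52.7 and 23.7 CPM and Spp1 at 1949.8, 1317, 1464, 2814 and 1846 CPM in the same order. Spp1 was below untreated with BLA, BLU and BLU-A, as Itga9 was. Both ligands were highest with BLA-A, where Itga9 was lowest. Itga7, a laminin receptor subunit of muscle, was low but above untreated in every treated library, at 4.58, 6.83, 5.59, 15.2 and 7.89 CPM, 3.33-fold with BLA-A.

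Among the glycoproteins, Sparc (osteonectin, a collagen-binding protein) and Tnc were higher with BLA-A and Thbs1 was not. Sparc (chromosome 11, 55285317 to 55314067, minus strand) was at 94.1 CPM in untreated cells, 58.4 with BLA, 67.1 with BLU, 233 with BLA-A and 77.2 with BLU-A, 2.48-fold with BLA-A (2.36 to 2.60). Its level with BLA was 0.621 of the untreated one (0.583 to 0.661), and no other annotated gene overlaps it. Tnc was 2.18-fold with BLA-A (1.98 to 2.40). Fn1, the most abundant member by CPM, was at 4441, 4494, 4402, 7628 and 4379 CPM, 1.72-fold with BLA-A (1.71 to 1.73), a log2 fold change of 0.78 that lay within the threshold. Thbs1 was at 534, 533, 483, 479 and 514 CPM. The 6 glycoproteins summed to 7043 CPM in untreated cells, 6431 with BLA, 6449 with BLU, 11207 with BLA-A and 6839.7 with BLU-A.

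Type IV collagen gave the single well expressed member that was higher with BLA, BLU and BLU-A, though it reached that level only through treated libraries. Col4a6 (X chromosome, 139948399 to 140257072, minus strand) was at 7.84 CPM in untreated cells, 20.1 with BLA, 25.2 with BLU, 10.8 with BLA-A and 21.2 with BLU-A. It was 2.57-fold with BLA (2.18 to 3.02), 3.22-fold with BLU (2.75 to 3.77) and 1.38-fold with BLA-A (1.14 to 1.67), and its log2 fold change with BLU-A was 1.38. Its neighbour Col4a5, which is read from the opposite strand, starting close by, was at 70.5, 84.3, 89.0, 53.4 and 82.1 CPM, with no log2 fold change over 0.40 in size. The per-kilobase ratio of Col4a6 to Col4a5 was 0.130 in untreated cells and 0.280, 0.332, 0.238 and 0.302 in the treated libraries. Col4a1 and Col4a2, the chains of the common type IV trimer, were at 419 and 319.7 CPM without treatment and at 587 and 507 CPM with BLA-A, log2 fold changes of 0.49 and 0.66. Of the 6 type IV chains 5 were kept, a number too small to read anything from none being lower, where 4.50% to 12.4% of all genes kept were lower.

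The windows before the starts of Col4a6 and Col4a5 are shown since the genes lie head to head, with 842 bases between the windows, and only the first passed the threshold. Capitals again mark the GC box.
Col4a6 (chrX:141474077-141474326, minus strand, GRCm38.p6): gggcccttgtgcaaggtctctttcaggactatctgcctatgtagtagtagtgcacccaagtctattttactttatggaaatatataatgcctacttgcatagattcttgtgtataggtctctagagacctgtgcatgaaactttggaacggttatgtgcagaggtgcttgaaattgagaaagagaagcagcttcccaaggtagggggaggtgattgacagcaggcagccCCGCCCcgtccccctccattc
Col4a5 (chrX:141475169-141475418, plus strand, GRCm38.p6): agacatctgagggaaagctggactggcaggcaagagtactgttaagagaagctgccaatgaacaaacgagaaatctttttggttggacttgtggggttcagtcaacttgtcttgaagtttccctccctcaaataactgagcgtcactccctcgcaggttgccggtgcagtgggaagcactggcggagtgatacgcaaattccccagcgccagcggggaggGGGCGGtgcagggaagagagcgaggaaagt
Each window held 1 match.

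The other well expressed collagens differed little. Col8a1, a short-chain collagen and the most abundant collagen by CPM, was at 565 CPM in untreated cells, 739 with BLA, 778 with BLU, 703 with BLA-A and 693 with BLU-A. It was above untreated in all 4 treated libraries, with log2 fold changes of no more than 0.46. Its partner chain Col8a2 stayed at or under 0.943 CPM. Col18a1, the precursor of endostatin, was at 288, 258, 270.3, 327 and 289 CPM. Col7a1, the anchoring fibril collagen, was at 70.4, 90.0, 84.3, 106 and 87.7 CPM, and Col6a1 at 15.6, 10.1, 12.8, 31.6 and 12.3 CPM, where the BLA-A value, a log2 fold change of 1.00, fell just short of the threshold and passed it with DESeq2 size factors (1.06). Of the 8 kept fibrillar chains, 2 were lower with BLA, 2 with BLU, 3 with BLA-A and 4 with BLU-A, against 8.54%, 4.64%, 12.4% and 4.50% of all genes kept, and none was higher, against 7.92%, 5.66%, 8.54% and 3.35%. Among the lower ones are members that passed the filter through the untreated library alone. Col5a1 was the single one above 10 CPM, at 139, 158, 128, 218 and 133 CPM. Col1a1, Col1a2, Col3a1, Col4a5, Col5a1, Col6a1, Col7a1 and Lamb2 were named after their values were seen.

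**Figure D3:**
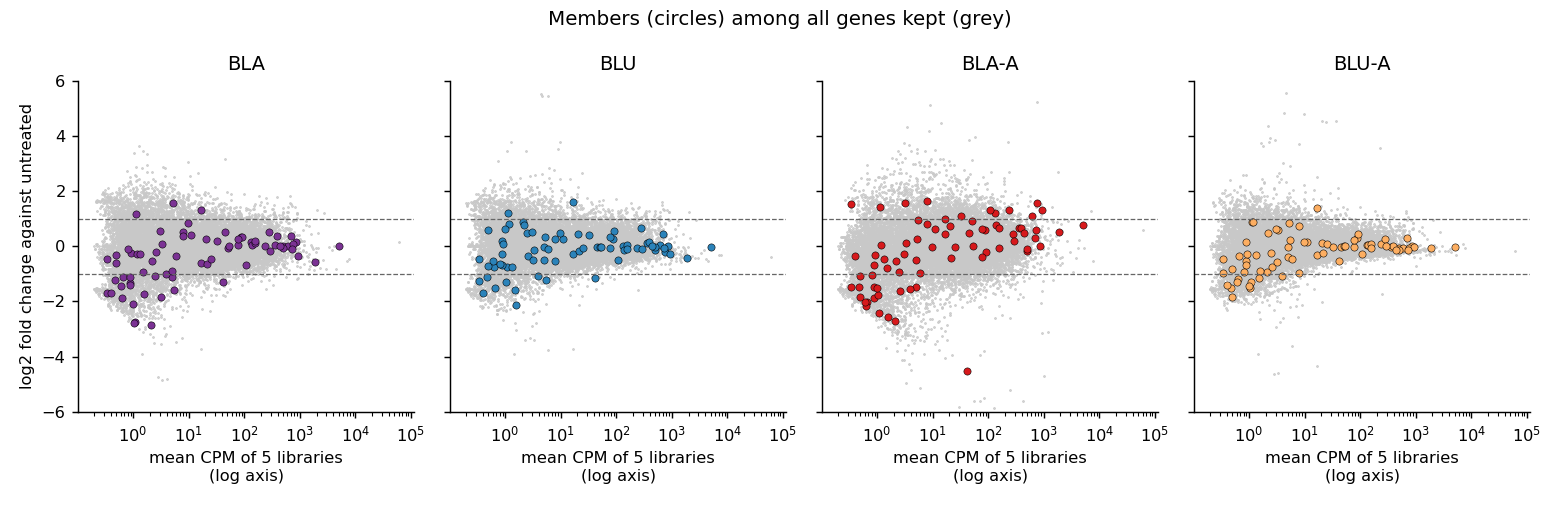
Log2 fold change against the untreated library (y axis, CPM plus 0.5) by mean level over the 5 libraries (x axis, CPM, log scale) in the 4 treated libraries. Grey dots are the 17647 genes kept and circles the 74 members kept, and dashed lines mark log2 fold changes of 1 and -1, so that members under 10 CPM spread widely in each panel while those above 10 CPM lie within the lines with BLA and BLU except Col4a6 and Itga9, and with BLU-A except Col4a6.

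Members under 10 CPM were more often lower than higher in each treatment. Of the 38 kept, 19 were lower with BLA, against 17.1% of the 7882 genes of this level, 9 with BLU, against 9.87%, 18 with BLA-A, against 21.9%, and 10 with BLU-A, against 9.95%. In the other direction 2, 1, 4 and 0 members were higher, against 13.2%, 10.2%, 9.38% and 6.56%. The counts include the 8 members that passed the filter through the untreated library alone, which are no support for a direction. With a pseudocount of 2 CPM, 6 members of the whole set were lower with BLA, 2 with BLU, 6 with BLA-A and 0 with BLU-A. In 16 members at least 1 library held no counts at all. Among the low collagens, Col22a1, Col15a1 and Col6a6 had 82, 79 and 76 counts in untreated cells and 0 with BLA, which is at least 27.9-fold, 26.9-fold and 25.9-fold lower against a floor of 3 counts in the library. Col15a1 is among the 8 members kept through the untreated library alone, so it had to be lower in the treated ones. Col22a1 did not move in a single direction, with 169 counts with BLU, 1 with BLA-A and 36 with BLU-A. All 3 were named after their values were seen.

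Some low members had a level that differed from library to library. Col12a1, a collagen that decorates fibrils, was at 5.70 CPM in untreated cells, 1.54 with BLA, 2.14 with BLU, 11.6 with BLA-A and 6.83 with BLU-A, so it was lower with both extracts and not with the nanoparticles. Col19a1 was at 2.74, 0.404, 1.81, 9.06 and 1.66 CPM, and Col20a1 at 2.96, 9.88, 3.92, 3.67 and 5.77 CPM. Col24a1, a fibrillar chain, was below untreated in every treated library, at 7.32, 3.38, 3.19, 2.16 and 3.21 CPM, with log2 fold changes of -1.01, -1.08, -1.56 and -1.08. Col23a1, a membrane collagen, was at 7.95, 3.38, 5.52, 2.55 and 5.96 CPM. The genes of Col19a1, Col23a1 and Col24a1 span 330.2, 294 and 259.5 kb.

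**Figure D4:**
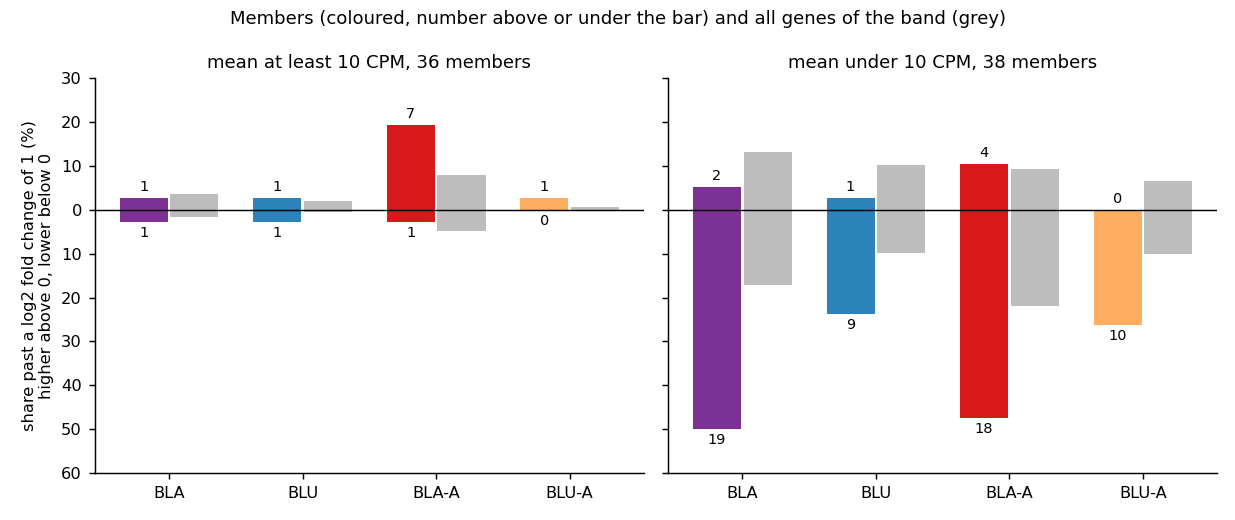
Share of members (coloured bars, with the number of members) and of all genes of the same level (grey bars) beyond a log2 fold change of 1 in each treated library, higher above 0 and lower below 0 (y axis, %), for a mean of at least 10 CPM (left, 36 members) and under 10 CPM (right, 38 members). In the left panel 7 members are higher with BLA-A, and in the right panel 19, 9, 18 and 10 members are lower with BLA, BLU, BLA-A and BLU-A.

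Differences were also set beside gene length and base composition. The 16 kept members over 150 kb long had median log2 fold changes of -0.81 with BLA, -0.41 with BLU, -1.47 with BLA-A and -0.56 with BLU-A, beside 0.08, 0.20, -0.40 and 0.05 for the 1568 genes of that length. Of these members 8, 4, 9 and 3 were lower past the threshold, against 24.4%, 10.4%, 39.1% and 14.5% of the 1568 genes. In each treatment 1 was higher, against 9.44%, 6.57%, 2.10% and 1.85%. The 16 include Col11a1, Col28a1 and Lama4, which passed the filter through the untreated library alone. These genes had to be lower in the treated libraries, so they are no support for a direction. The 24 under 50 kb had medians of -0.20, -0.10, 0.56 and -0.04, beside -0.10, -0.08, 0.04 and -0.03. The long members were also the lower expressed ones, with a median level of 4.46 CPM against 12.2 CPM. Of the 36 well expressed members, the 9 whose longest transcript had a GC content under 50% had a median of 0.43 with BLA-A and none past the threshold, where 3.56% of all such genes were higher. The 16 with 50 to 55% had a median of 0.76 with 5 higher, against 9.83%, and the 11 with at least 55% a median of 0.63 with 2 higher (Lama5 and Itga3), against 18.4%. Over all genes of this level the medians with BLA-A were -0.03, 0.18 and 0.45 in the same order of classes. The part of length and of GC content in the differences of single members was not tested.

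Setting each nanoparticle library against the extract of the same berry, 8 of the 36 well expressed members were higher with BLA-A than with BLA, against 11.6% of genes of that level, and 1 (Itga9, log2 fold change -3.22) was lower, against 5.89%. Among the 8 were Sparc (1.99), Itga3 (1.70), Col6a1 (1.60), Lama5 (1.49), Spp1 (1.10), Lamc1 (1.07) and Lamb3 (1.04). Tnc, at 0.91, was not among them. In BLU-A against BLU none was past the threshold in either direction, against 0.287% higher and 0.0717% lower. Among the low members, Col12a1 was higher with nanoparticles than with extract of either berry, by 2.57 for blackberry and 1.47 for blueberry on the log2 scale. The difference between the berries in this step was not tested. With both nanoparticle libraries set against both extract libraries, a test added after seeing the data in which berries serve as replicates, edgeR's quasi-likelihood test called none of the 74 members and none of the 17647 genes (0%), and 6 members passed an unadjusted threshold of 0.05, against 1058 of all genes (6%). Col12a1 came first, higher by 2.32 on the log2 scale (standard error 0.5) and in 2 of 2 nanoparticle libraries, with an edgeR unadjusted p of 0.00237 and an adjusted p of 0.702. With both blackberry libraries set against both blueberry libraries the same test again called none of the members and 0% of all genes, and 4 members passed unadjusted, against 3.82%.

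The 4 treated libraries were all above the untreated library for 11 of 74 kept members, where 19.4% of all genes were, and all below it for 24, where 19.3% were. The 24 hold 20 members under 10 CPM and all 8 that passed the filter through the untreated library alone, which had to be among them, so the count is no support for a direction. With the 4 treated libraries taken as 1 group against the untreated library, edgeR's quasi-likelihood test called none of the 74 members after Benjamini-Hochberg adjustment over all 17647 genes, of which it called 0.0227%. The smallest adjusted p of a member was 0.999, and DESeq2 called none either. At an unadjusted threshold of 0.05 the same test passed 2 members, against 481 of all genes (2.73%). Col24a1 had a log2 fold change of -1.29 (standard error 0.49), below untreated in 4 of 4 treated libraries, and edgeR gave it an unadjusted p of 0.0325 and an adjusted p of 0.999. Col4a6 had a log2 fold change of 1.30 (standard error 0.51), above untreated in 4 of 4, with an edgeR unadjusted p of 0.0371 and an adjusted p of 0.999. The spread in that test is the spread between different treatments, BLA-A included, and its untreated side holds 1 library. Members came closer to a call without the BLA-A library than without any other treated library. An exact permutation test of 1 library against 4 cannot go below 0.2.

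Genes that make, modify and hold the matrix were counted from lists of their own. Of 25 kept genes of collagen processing and crosslinking, 7 were higher with BLA-A and 2 lower, against 8.54% and 12.4% of all genes kept, with a median log2 fold change of 0.52. The 7 were P4ha2, Plod1, P3h1, P3h2, which hydroxylate collagen, Serpinh1, the collagen chaperone of the endoplasmic reticulum, Colgalt1, a collagen galactosyltransferase, and Pcolce, which aids the cutting of procollagen. The 2 lower were Colgalt2 and Adamts2, at 1.31 and 2.89 CPM in untreated cells. Serpinh1 was at 177 CPM in untreated cells, 126 with BLA, 128 with BLU, 456 with BLA-A and 164 with BLU-A. P4ha2 was at 10.4, 22.7, 10.5, 45.3 and 12.3 CPM, and Colgalt1 at 52.2, 35.5, 46.7, 175 and 43.8 CPM. The genes of this list with the highest levels, P4hb, Bmp1 and Loxl4, had log2 fold changes of 0.78, 0.77 and 0.37 with BLA-A. In BLA 1 gene of the list was higher, against 7.92%, and 1 lower, against 8.54%. In BLU neither direction had a gene, against 5.66% and 4.64%, and with BLU-A 1 was lower, against 4.50%, and none higher, against 3.35%.

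Of 27 kept genes for other matrix proteins and proteoglycans, 5 were higher with BLA-A, against 8.54% of all genes kept, and 5 lower, against 12.4%, with a median of 0.53. The 5 higher were Hspg2, Agrn, Ecm1, Tnxb and Sparcl1. The 5 lower were Fbn1, Fbn2, Tnn, Tnr and Smoc1, none above 7.77 CPM in untreated cells. Hspg2 (perlecan, the basement membrane proteoglycan that binds laminin) was at 407 CPM in untreated cells, 424 with BLA, 345 with BLU, 1282 with BLA-A and 365 with BLU-A. Agrn (agrin, another laminin-binding proteoglycan) was at 116, 125, 99.8, 234 and 114 CPM, while the latent TGF-beta binding proteins Ltbp1 and Ltbp3 had log2 fold changes of 0.53 and 0.59. Nid1 was below untreated in every treated library, at 5.03, 2.09, 3.70, 2.55 and 2.30 CPM. Of 12 kept other matrix receptors, Sdc1 (1.10, a syndecan) and Ddr1 (1.30, a collagen receptor kinase) were higher with BLA-A and none was lower, against the same shares. In that list Cd44, the hyaluronan receptor, was at 978 CPM in untreated cells and 1562 with BLA-A, and Cd47, the thrombospondin receptor, at 501 and 303. Sdc4, another syndecan, was at 314 and 601 CPM in the same order. The 28 kept genes of integrin adaptors and focal adhesions had 1 gene higher with BLA-A (Parvb) and none lower, again against 8.54% and 12.4%, with a median of 0.29, and Tns3, Actn1 and Actn4 had log2 fold changes of 0.50, 0.30 and 0.33. In BLA, BLU and BLU-A these 3 lists held at most 3 genes past the threshold in either direction, against the shares of all genes given above for these treatments.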

How the data were processed

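RNA-seq of 5 conditions of 4T1 cells was examined from the deposited table, where the authors list raw counts of 40402 genes in 15 columns. After removal of ribosomal RNA, reads were aligned by the authors with STAR to GRCm39 and counted over whole genes by strand in OmicsBox. The reads are listed as merged single files, so whether strand was resolved is open. The submitters' processing notes also name DESeq2 1.36.0. Their tables of fold changes with p-values and of gene set enrichment scores were not used.

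The 3 columns of a condition were averaged, rounded to whole counts and used as 1 library, with totals of 25613778 to 26956442 counts, at which the floor of 3 counts is 0.109 to 0.129 CPM. The 17647 genes reaching 1 CPM in any library were kept. TMM normalization and the quasi-likelihood test came from edgeR 4.0.16 (Benjamini-Hochberg adjustment, threshold 0.05), with DESeq2 1.42.0 as an alternative, in R 4.3.3. The test was also run on simulated counts, and the outcome of that run is not given here. Fold changes of single treatments have no test. Tests of 2 libraries against 2 were added after seeing the data. Intervals of a fold are exact binomial (Clopper-Pearson) intervals of the share of 2 counts.

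Positions, exon lengths and transcripts came from GENCODE release M39, in which all 86 members matched. Members named were the 15 with the highest mean CPM and those past the fold with at least 5 CPM. That level was required in untreated cells or in that treatment. Known partner chains of these members were also named. Of each list of other genes, the 3 with the highest level were named by rule. Further genes of these lists were named after their values were seen. One member is counted in the set but not reported here. Members and lists were chosen with earlier results of these data known. Alternatives covered the normalization, filter, pseudocount, columns, fold threshold and test.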

Additional observations from a re-analysis of the deposited data

How the results depend on the processing

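Each condition had 1 library, and no alternative adds a replicate. Counting intervals were narrow above 10 CPM and cover counting error only. Of the log2 fold changes of named members under other normalizations, pseudocounts and sets of columns, 900 stayed within the counting interval, 80 moved beyond it and none past the threshold changed sign. Of the counts of members, 221 alternative values stayed within 1.5 times the main value. The sets of columns are a weak check in both, since the columns of a condition vary less than sampling alone would make them. In the values below, the main count stands in brackets. At a pseudocount of 2 CPM, 6 members (20) were lower in BLA, 1 (2) higher and 2 (10) lower in BLU, 6 (19) lower in BLA-A and 0 (10) lower in BLU-A. At 0.1 CPM, 3 (1) were higher and 17 (10) lower in BLU-A. In BLU-A, 2 (1) were higher with no filter on low counts, with 10 counts in at least 1 library, or with the columns of replicate number 2 or 3 alone, and from 1 to 2 without 1 replicate number. With 10 counts in at least 1 library, 17 (11) were above untreated in all 4 treated libraries. At a fold change of 1.5, 8 (2) were higher and 16 (10) lower in BLU, 24 (11) higher in BLA-A, and 6 (1) higher and 18 (10) lower in BLU-A, and of the well expressed members 4 (1) were lower in BLA, 2 (1) higher in BLU and 18 (7) higher in BLA-A. At a fold change of 4 none was higher in any treatment, in either set of members, and 4 were lower with BLA, 1 with BLU, 7 with BLA-A and 0 with BLU-A, of the well expressed ones 0 in BLA and 0 in BLU. The counts for well expressed members were chosen after seeing the data.

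Entered as 15 separate samples, the columns gave 67 members called by edgeR's quasi-likelihood test with no replicate block and 67 with a replicate block, against none with averaged columns. Of all 17647 genes, the 15 columns gave 14181 and 14182 called. By construction this takes subsets of 1 library as replicates. Same-numbered columns did not deviate together (mean correlation -0.000903 over 30 pairs, none over 0.1), so the numbers do not pair the samples. With averaged columns, leaving out any treated library called no member. Neither did total counts, DESeq2 size factors, 10 counts in at least 1 library or DESeq2's Wald test.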
